A study of Mus musculus with 2 samples.

Results

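Eda-selected cells are the cells from a sorted hair follicle fraction of newborn mouse skin that were chosen by their transcripts of Myb, Gfra3, and Eda. They numbered 3798 of the 16453 cells that passed the quality limits. A cell was selected on its UMIs (unique molecular identifiers, each marking 1 captured mRNA molecule) in 4 steps. It needed at least 4 UMIs of Myb, Gfra3, and Eda together, which 7074 cells had. That sum had to exceed the UMIs of Dcn, Dlx4, and Cldn10, which removed 2621 cells. The cell could hold at most 1 UMI of Shh, which removed a further 609, and fewer than 20 UMIs of Krt71, Krt25, Krt27, and Krt73 per 10000, which removed 46. All values that chose the cells come from the counts described below, so levels of these 11 genes, and differences between the selected cells and the remainder, are descriptions without a test.

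Single-cell RNA sequencing was performed on tdTomato+ keratinocytes sorted from the dermal fraction of back skin at postnatal day 1, from 1 library with the genotype label WT and 1 with the label PADI4 cKO, which share batch 1. The Krt14 promoter drives Cre in keratinocytes and thereby the reporter that was sorted, and the conditional knockout was made by crossing this reporter line to Padi4 fl/fl mice. The study describes the profiled WT cells as positive for the K14-Cre tdTomato reporter, whereas the protocol text of both libraries names K14-Cre Padi4 fl/fl skin, so that the sources differ on the Padi4 alleles of the WT mice. The number and sex of the animals behind a library are not given. The PADI4 WT library held 143938990 UMIs and the library labelled PADI4 cKO (cKO-labelled library) 143945294, and the limits on droplets (2000 to 60000 UMIs, 1000 to 8000 genes, and at most 20% mitochondrial UMIs) left 8661 and 7792 cells, of which 17 barcodes occurred in both libraries. Each genotype has a single library, so nothing was tested across animals, and the 95% intervals given here (exact binomial for shares, exact Poisson for levels, and exact conditional binomial for ratios) cover counting error only. Levels are CPM, the UMIs of a gene per 1000000 UMIs summed over a set of cells.

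The 2 libraries stood apart in the sex of their cells. Of the selected cells, 26.2% in the PADI4 WT library (504 cells) had UMIs of Xist and none of the Y-linked genes, and 61.3% (1180 cells) had Y-linked UMIs and none of Xist. In the cKO-labelled library, 98.7% (1849 cells) had Xist UMIs alone and 0 had Y-linked UMIs alone. Most ratios of named genes between the libraries are therefore also given for cells with Xist and without Y-linked UMIs (Xist cells). Padi4, the targeted gene, gave 29 UMIs in the selected cells of the PADI4 WT library (0.859 CPM) and 25 UMIs (0.689 CPM) in the cKO-labelled library. This is a log2 ratio of −0.32, with an interval of −1.15 to 0.50, and 0.09 (−1.21 to 1.94) among the Xist cells. Where along Padi4 these UMIs fall was not examined, so they do not tell an intact from a deleted allele. The library is called by its label throughout.

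The hair matrix is the pool of dividing cells at the base of the follicle that surrounds the dermal papilla and gives rise to the hair shaft and the inner root sheath. Ectodysplasin, the product of Eda, is a ligand of the tumor necrosis factor family that signals through the receptor EDAR and its adaptor EDARADD to NF-κB, and it is known for its part in the induction and downgrowth of hair follicles. Myb encodes a transcription factor of dividing progenitor cells, and Gfra3 the co-receptor that presents artemin to the receptor tyrosine kinase RET. Eda and Myb supplied nearly all UMIs of the selection, and the 250 bases before their annotated starts are shown for this reason, 5′ to 3′ on the strand of the gene, from RefSeq on GRCm38.p6. Eda is read from the plus strand at chrX:99975356-99975605 and Myb from the minus strand at chr10:21160985-21161234. Capitals mark GC boxes, that is GGGCGG or its reverse complement CCGCCC, which overlap once in Myb.

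Eda: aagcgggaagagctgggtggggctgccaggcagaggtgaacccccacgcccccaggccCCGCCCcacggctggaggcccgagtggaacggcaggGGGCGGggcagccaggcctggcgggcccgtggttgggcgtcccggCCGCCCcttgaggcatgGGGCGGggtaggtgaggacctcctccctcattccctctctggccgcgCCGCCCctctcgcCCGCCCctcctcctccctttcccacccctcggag

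Myb: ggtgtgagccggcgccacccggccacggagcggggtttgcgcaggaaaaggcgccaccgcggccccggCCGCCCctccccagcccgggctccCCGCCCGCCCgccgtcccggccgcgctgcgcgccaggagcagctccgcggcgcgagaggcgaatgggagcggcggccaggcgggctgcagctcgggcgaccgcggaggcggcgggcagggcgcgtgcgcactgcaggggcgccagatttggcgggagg

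The Eda window has 75.6% G or C and 6 GC boxes, and the Myb window 81.2% and 3. The core letters bound by LEF1 and the TCF factors, CTTTGA or TCAAAG, occur in neither window. Over 32851 windows of the same length from 27025 genes, the median G and C content was 52.4%, a GC box was present in 32.7% and CTTTGA or TCAAAG in 13.8%. These are matches of letters and not binding sites.

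The selection rested on Eda. In the PADI4 WT library Eda gave 28222 of the 31027 UMIs that counted toward the threshold (91.0%), Myb 2401 (7.74%), and Gfra3 404 (1.30%). In the cKO-labelled library these shares were 89.7% for Eda, 8.75% for Myb, and 1.60% for Gfra3. Of the selected cells, 94.8% and 94.3% had at least 4 UMIs of Eda alone. A Myb UMI was present in 40.3% of the selected PADI4 WT cells (775 of 1925) and 45.8% of the cKO-labelled ones (857 of 1873), and a Gfra3 UMI in 14.0% and 16.3%. All 3 genes together were seen in 9.09% and 12.1%, and 54.9% and 50.3% had no UMI of Myb or Gfra3. By the UMIs seen, the name of matrix cells with Myb, Gfra3, and Eda fits a minority of these cells, and they are named here after Eda. A missing UMI does not show that a transcript was absent. Gfra3 stood at only 11.97 and 15.4 CPM. Cells without UMIs of Myb or Gfra3 were also shallower, with medians of 13950 and 15012 UMIs, than cells with at least 2 (20294 and 21128 UMIs).

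Selected cells made up 22.2% of the PADI4 WT library (1925 cells, interval 21.4% to 23.1%) and 24.0% of the cKO-labelled library (1873 cells, 23.1% to 25.002%). They were deeper than the remainder, with a median of 16593 UMIs against 13568.5 in the PADI4 WT library and 18164 against 15058 in the other. A fixed minimum of UMIs is reached more easily in a deep cell. After each cell was thinned at random to 2000 UMIs, an Eda UMI was seen in 70.8% and 68.9% of the selected cells and in 25.4% and 26.4% of the remainder. The calls of doublets, droplets with the RNA of more than 1 cell, were 4.16% and 5.61% among the selected cells and 3.13% and 3.26% among the remainder.

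Eda stood at 836 CPM in the selected PADI4 WT cells and 864 CPM in the cKO-labelled ones, against 277 and 331 CPM in the remainder and 205 CPM in the empty droplets of each library. In 25 and 5 epidermal cells with high Krt1, Krt10, and Krtdap, Eda was at 70.0 and 135 CPM, with UMIs in 9 and 4 cells. These cells had 0 UMIs of Myb and Gfra3. Free RNA made up at most 7.83% and 8.33% of the UMIs of the selected cells, by the collagen transcripts they held. Myb stood at 71.1 and 84.3 CPM against 22.5 and 26.1 in the remainder, and Gfra3 at 11.97 and 15.4 CPM against 3.46 and 3.29. These genes chose the cells, and the values only show how far the selection set them apart.

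The other markers given for the population were not alike. Kit, the receptor of stem cell factor, was at 8.12 CPM in the selected PADI4 WT cells and 7.56 CPM in the remainder, a log2 ratio of 0.10 (−0.10 to 0.30). In the cKO-labelled library the levels were 9.09 and 5.45 CPM, a log2 ratio of 0.74 (0.53 to 0.94). Dlx2, a homeobox gene of the follicle, was at 44.4 and 49.8 CPM against 27.5 and 31.7, with log2 ratios of 0.69 and 0.65. In cells with at least 2 Shh UMIs, which belong to the remainder, Dlx2 was at 40.1 and 42.4 CPM. Dlx3, a homeobox gene required for the hair shaft, was close in the selected cells and the remainder, at 104 and 111 CPM against 94.7 and 102, with log2 ratios of 0.13 in both libraries. Dlx3 in both libraries and Kit in the PADI4 WT library thus differed little between the selected cells and the remainder, whereas Kit was higher in the selected cells of the cKO-labelled library. The libraries differed more in Kit among the remainder than among the selected cells. Cells with 0 UMIs of Myb, Gfra3, and Eda had Kit at 6.73 CPM for PADI4 WT and 2.30 CPM in the other library. A cluster of 90 cells, 13 of them selected, had it at 251 CPM. Its leading genes, Prrx1, Col3a1, Zeb2, Pax3, Ldb2, Tyr, Synpr, and Col6a3, include genes of fibroblasts and of pigment cells. The part of these cells in the ratio was not tested.

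The selected cells were spread over the follicle. Clustering of all 16453 cells without the genes of the selection gave 25 clusters, and selected cells occurred in 25 of them. They were the majority in 2, as seen in the plot of the share of selected cells per cluster. In the cluster led by Phactr1, Plcxd3, and Clstn2 they were 505 of 628 cells (80.4%), and in the cluster led by Kit, Gm31727, and Ecel1, with Gfra3 and Myb among its 8 leading genes, 469 of 934 (50.2%). Together these 974 cells were 25.6% of the selected cells. In the other 23 clusters fewer than 30% of the cells were selected.

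**Figure D1:**
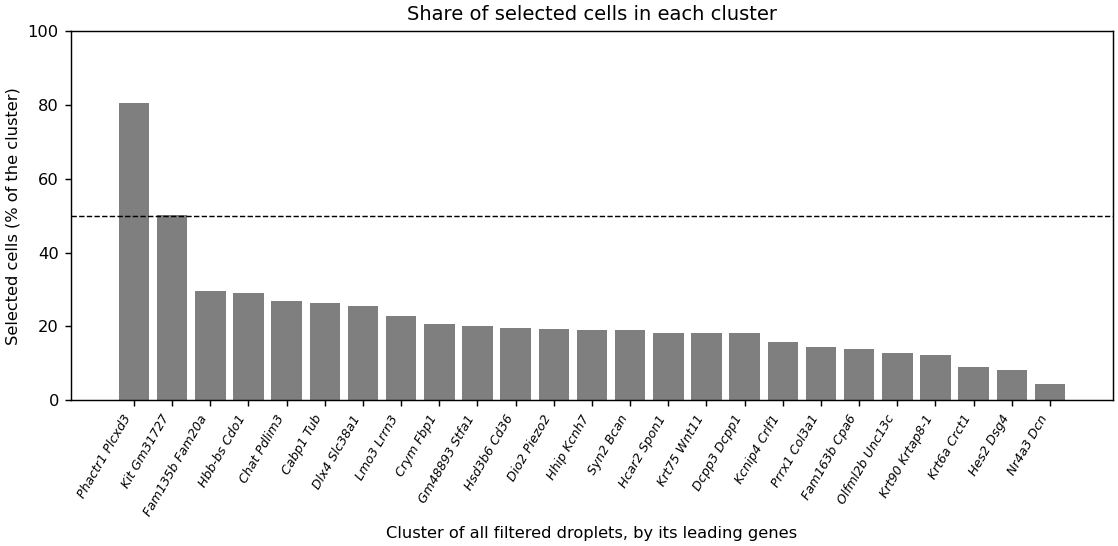
Bars give the percentage of the cells of each of 25 clusters that were selected, and the dashed line marks 50%. Only the clusters led by Phactr1 and by Kit lie above it, at 80.4% and 50.2%, and the lowest, led by Nr4a3 and Dcn, is at 4.24%.

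The cluster led by Kit was divided by the limit on Dcn, which encodes the proteoglycan decorin, Dlx4, and Cldn10. Of its 465 cells that were not selected, 358 had at least as many UMIs of these genes as of Myb, Gfra3, and Eda, 83 exceeded the limits on Shh or the sheath keratins, and 24 fell short of 4 UMIs. Selected and unselected cells of this cluster differed in Dcn (447 and 2230 CPM) and Eda (1659 and 1092 CPM), as the selection set. Kit, which it did not use, was at 34.9 and 30.6 CPM, and Dlx3 at 201 and 184 CPM. In the cluster led by Phactr1, 103 of the 123 unselected cells had fewer than 4 UMIs of Myb, Gfra3, and Eda, and Phactr1 was at 241 CPM in its selected cells and 119 CPM in the others.

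Levels changed along the sum that chose the cells. Just outside the threshold, at 3 UMIs (347 and 331 cells in the PADI4 WT library and the cKO-labelled library), Krt15, a keratin of the outer root sheath and its stem cells, stood at 1311 and 1197 CPM, and Sox9, a transcription factor of the same layer, at 359 and 337 CPM. Just inside, at 4 UMIs (265 and 223 cells), they were at 1221 and 1166 CPM and at 326 and 296 CPM. Kit was below 1 CPM on both sides, at 0.423 and 0.808 CPM outside and 0.269 and 0.290 CPM inside. Levels of these genes showed no break at the threshold.

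At the upper end, the 179 and 243 cells with at least 40 UMIs of Myb, Gfra3, and Eda (9.30% and 13.0% of the selected cells) had other levels. Kit reached 28.5 and 28.6 CPM there, Dlx3 194 and 190 CPM, and Lef1, the transcription factor through which Wnt signals act in the matrix, 703 and 616 CPM, against 97.5 and 110 CPM just inside the threshold. Cux1, a homeobox gene of the follicle, was at 3070 and 3260 CPM against 757 and 1102 CPM, and Mki67, a marker of dividing cells, at 1016 and 916 CPM against 358 and 213 CPM. Krt15, Sox9, and Krt5 went the other way. Krt15 was at 55.9 and 109 CPM, Sox9 at 28.1 and 30.2 CPM, and Krt5, a basal keratin, at 458 and 477 CPM against 1820 and 1824 CPM. Phactr1 peaked between 20 and 39 UMIs, at 107 and 85.1 CPM, and was at 55.3 and 51.2 CPM in the uppermost cells. The median depth also increased, from 13677 and 14357 UMIs just inside the threshold to 22555 and 25005 UMIs. Doublet calls were 2.26% and 1.79% just inside the threshold, 6.44% and 9.03% between 20 and 39 UMIs, and 3.35% and 10.3% in the uppermost cells. The part of depth and of doublets in these differences was not tested.

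**Figure D2:**
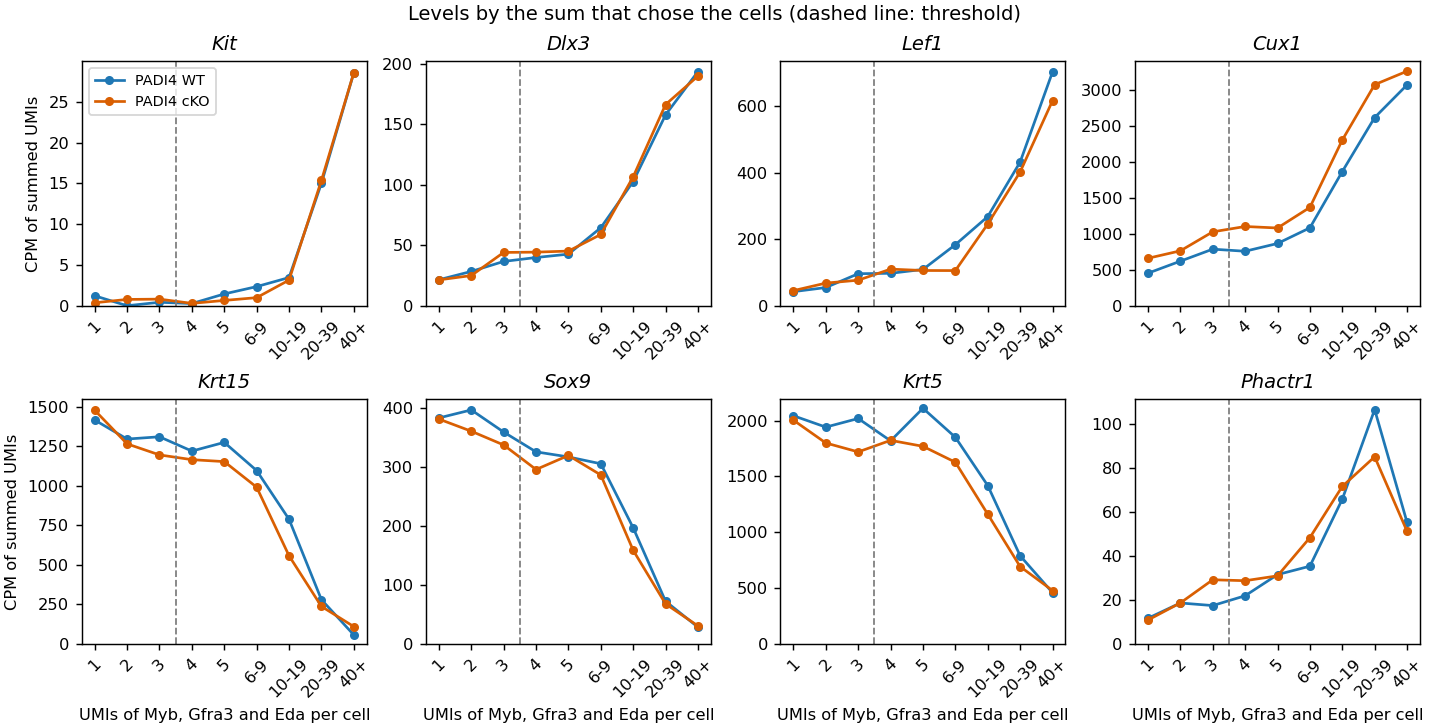
Levels of 8 genes (CPM of summed UMIs) by the UMIs of Myb, Gfra3, and Eda per cell, with the PADI4 WT library in blue and the cKO-labelled library in orange. Kit, Dlx3, Lef1, and Cux1 are higher and Krt15, Sox9, and Krt5 lower at the right end in both libraries, where Krt15 is at 55.9 CPM in blue and 109 CPM in orange.

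Cells with UMIs of Myb or Gfra3 differed from cells selected on UMIs of Eda alone. The 593 PADI4 WT cells and 701 cKO-labelled cells with at least 2 UMIs of Myb and Gfra3 (30.8% and 37.4% of the selected cells) had Kit at 15.0 and 14.4 CPM, Dlx3 at 162 and 170 CPM, and Krt15 at 196 and 178 CPM. The 1056 and 943 cells without either had Kit at 2.29 and 3.85 CPM, Dlx3 at 57.2 and 49.6 CPM, and Krt15 at 1291 and 1147 CPM. Their median depths were 20294 and 21128 UMIs in the former and 13950 and 15012 UMIs in the latter. Both sets were split on genes of the selection, and Kit and Dlx3 were higher and Krt15 lower in the first. Kit was at similar levels, 15.0 and 12.2 CPM, in the Dcn, Dlx4, and Cldn10 cells that the selection left out.

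Genes with at least 50 UMIs were compared between the selected cells and the remainder, 15177 for PADI4 WT and 15027 in the cKO-labelled library. Among all genes compared, 64 (0.422%) and 101 (0.672%) were more than 2-fold higher, and 312 (2.06%) and 337 (2.24%) more than 2-fold lower. These counts include the 11 genes of the selection. In each library 3 of those 11 were more than 2-fold higher and 6 more than 2-fold lower, as the selection set. The median gene was at 0.02 and 0.01 on the log2 scale. Of the 25 genes outside the selection with the highest ratios in both libraries, Phactr1, a regulator of protein phosphatase 1 and actin, came first. It stood at 57.2 CPM in the selected PADI4 WT cells and 8.95 CPM in the remainder, a log2 ratio of 2.67 (2.56 to 2.79), and at 57.7 and 10.7 CPM in the cKO-labelled library, a log2 ratio of 2.43 (2.33 to 2.54).

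Cacna2d3, a subunit of voltage-gated calcium channels, had log2 ratios of 1.62 for PADI4 WT and 1.90 in the cKO-labelled library, and Clstn2, a calsyntenin, 1.57 and 2.09. Plcxd3, a phospholipase-like gene, had 2.46 and 1.56, and Lrp8, a receptor of reelin, 1.39 and 1.47. Slc24a2, a sodium, potassium, and calcium exchanger, had 1.35 and 1.62, and its 66 and 57 UMIs in the selected cells leave wide intervals (0.85 to 1.85 and 1.05 to 2.20). Fzd4, a Wnt receptor, had 1.16 and 1.43 with 6.25 and 6.61 CPM in the selected cells.

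Ntn1, the guidance cue netrin-1, was at 45.02 and 57.1 CPM in the selected cells against 16.99 and 21.5 CPM, with a log2 ratio of 1.41 in both libraries. Adamts9, a metalloprotease that cleaves proteoglycans, was at 199 and 283 CPM against 78.4 and 110 CPM, with log2 ratios of 1.34 and 1.36. Timp3, an inhibitor of such proteases, was the most abundant of the 25 genes by UMIs, at 690 and 830 CPM against 336 and 389 CPM, with log2 ratios of 1.04 and 1.09. Thbs1, the matrix protein thrombospondin-1, had 1.16 and 1.12. Thrb, a thyroid hormone receptor, had 1.02 and 1.33. The unnamed transcripts Gm15737 and A730049H05Rik, with log2 ratios of 1.44 and 1.27 (first gene) and 1.27 and 1.41 (second gene), lie within the span of Adamts9 on the opposite strand of chromosome 6, and whether their UMIs are independent of Adamts9 was not tested.

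Among the 10 genes with the lowest ratios, Scube1, a secreted protein, was at 2.31 and 4.16 CPM in the selected cells and 23.5 and 26.2 CPM in the remainder, log2 ratios of −3.34 and −2.65. Sp5, a transcription factor induced by Wnt, had −2.23 and −2.30, and Nkd2, an inhibitor of the pathway, −2.25 and −2.00. Bmp2 had −1.94 and −2.37, Wnt10b −1.80 and −2.33, and Sp6 −1.93 and −1.76. Sat1, an enzyme of polyamine breakdown, Ascl4, Cygb, and Gm15414 lay between −1.61 and −2.30 in both libraries. The selection removed cells with Shh, and relative to the 978 and 1157 cells with at least 2 Shh UMIs the log2 ratios of Scube1 were −5.36 and −4.37, those of Bmp2 −3.71 and −3.96 and those of Wnt10b −3.43 and −3.74. By construction, the limit on Shh lowers the ratios of genes that are high in those cells. The limits on the sheath keratins and on Dcn, Dlx4, and Cldn10 act in the same way. Nkd2 was at 184 and 212 CPM in cells high in the sheath keratins. Sat1 was at 529 and 504 CPM in the Dcn, Dlx4, and Cldn10 cells.

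**Figure D3:**
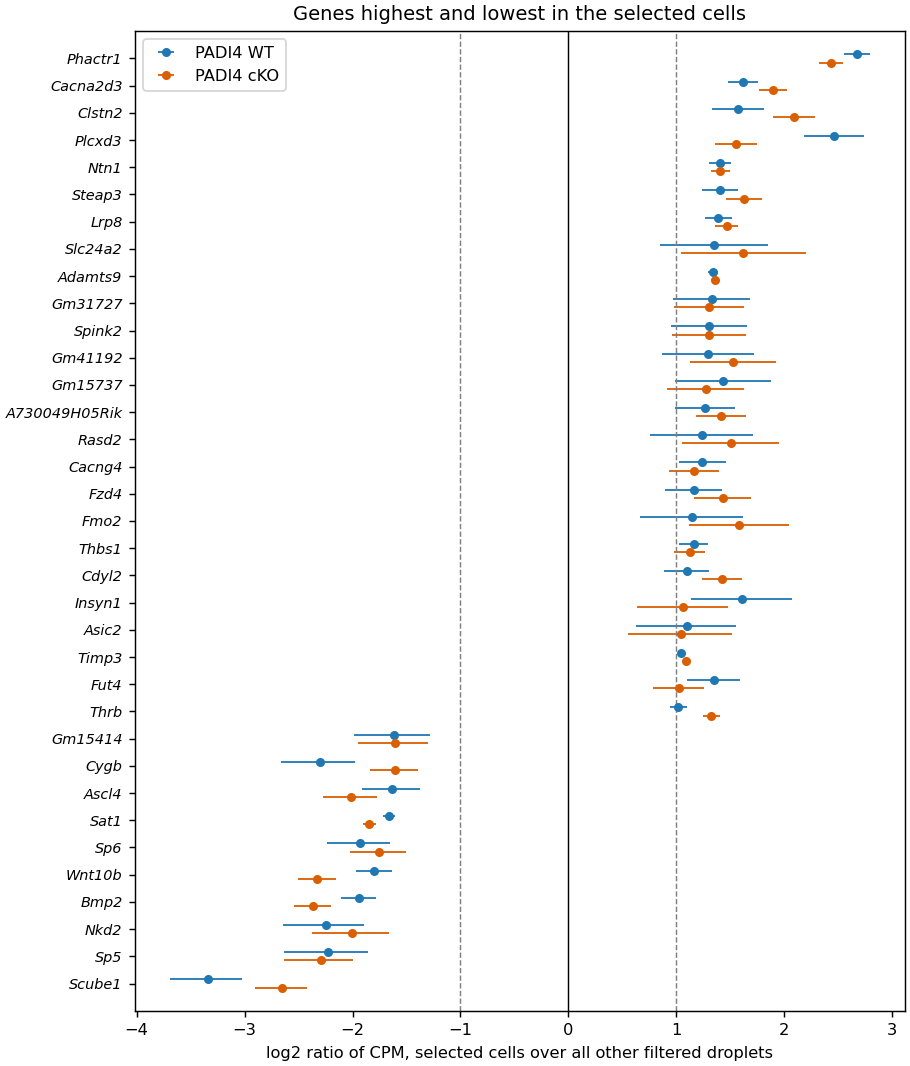
Log2 ratios of CPM, selected cells over all other cells, for the 25 highest and 10 lowest genes outside the selection, with 95% counting intervals, PADI4 WT in blue and the cKO-labelled library in orange. Phactr1 is highest (2.67 and 2.43) and Scube1 lowest (−3.34 and −2.65), and both libraries lie on the same side of 0 for all 35 genes shown.

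The 25 highest genes were long, with a median annotated span of 62.2 kb against 23.0 kb for all genes compared and 11.03 kb for the 10 lowest. Eda itself spans 425 kb of the X chromosome (99975606 to 100400762, plus strand). The sources used here do not give whether intronic reads were counted, and a part of gene length in the ratios was not tested. Of the 25 genes, 20 matched the promoter windows, with 33 windows, of which 9 (27.3%) held a GC box and 3 (9.09%) CTTTGA or TCAAAG. Of the 10 lowest genes 6 matched, with 6 windows, of which 3 held a GC box and 2 CTTTGA or TCAAAG. With so few windows nothing is read from these shares.

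The selected cells were also set beside the Dcn, Dlx4, and Cldn10 cells, chosen by the mirrored rule, and the Shh cells. Phactr1 was at 5.36 and 6.06 CPM in the former (1438 and 1033 cells) and 6.17 and 7.88 CPM in the Shh cells, and the log2 ratios of the selected cells over both lay between 2.87 and 3.41. Thrb was also higher in the selected cells, by 2.27 and 2.59 over the Dcn, Dlx4, and Cldn10 cells and by 1.90 and 2.002 over the Shh cells on the log2 scale. Lef1 was lower, by −1.61 and −1.71 and by −1.64 and −1.80. Kit went in opposite directions, with −0.88 (−1.11 to −0.65) and −0.43 (−0.67 to −0.18) relative to the Dcn, Dlx4, and Cldn10 cells, and 0.67 (0.34 to 1.02) and 0.64 (0.36 to 0.93) relative to the Shh cells. Of these 3 sets, Kit was highest in the Dcn, Dlx4, and Cldn10 cells, at 15.0 and 12.2 CPM. Dlx2 differed little, with 0.23 and 0.09 (−0.02 to 0.21) relative to the Dcn, Dlx4, and Cldn10 cells and 0.15 and 0.23 relative to the Shh cells. Cux1 had 0.43 and 0.36, and 0.11 and 0.26, in these comparisons. Relative to cells high in the sheath keratins Cux1 had −0.20 and 0.05.

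The ectodysplasin list had 9 and 10 genes with enough UMIs in the 2 libraries, of which Eda alone was more than 2-fold higher and 0 and 1 were more than 2-fold lower, with a median log2 ratio of −0.33 and −0.30. The shares over all genes compared, against which this and the following lists are read, were 0.422% and 0.672% higher and 2.06% and 2.24% lower. The receptor Edar was at 75.7 and 93.1 CPM in the selected cells against 95.3 and 115 CPM in the remainder, log2 ratios of −0.33 and −0.31. The related receptor Tnfrsf19 had −0.56 and −0.62. The adaptor Edaradd had 0.07 and 0.31, and the NF-κB targets Nfkbia and Relb −0.39 and −0.29 and −0.54 and −0.41. Eda2r, a receptor of another isoform of ectodysplasin, was near the limit of detection, with 0.948 and 0.964 CPM against 0.869 and 0.603 CPM and log2 ratios of 0.14 (−0.51 to 0.73) and 0.68 (0.03 to 1.31). Edar, Nfkbia, and Relb were thus not higher than in the remainder in cells chosen for the ligand.

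Of the GDNF family, 5 and 6 genes were compared, Gfra3 alone was more than 2-fold higher, 0 were lower, and the medians were 0.08 and 0.69. Ret, the receptor tyrosine kinase, was at 13.5 and 15.2 CPM with log2 ratios of 0.51 and 0.49, and Nrtn, the ligand neurturin, at 59.9 and 67.2 CPM with −0.20 and −0.37. Among 8 and 8 genes of Kit and endothelin signaling, 0 were more than 2-fold higher and 1 and 0 lower, with medians of −0.16 and 0.03. Kitl, the ligand of Kit, was at 181 and 177 CPM with −0.08 in both libraries, and Edn1 had 0.34 and 0.43.

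Of 29 and 28 transcription factors of the hair matrix, 0 were more than 2-fold higher and 1 and 1 more than 2-fold lower, close to the 2.06% and 2.24% of all genes, with a median of 0.09 in both libraries. Cux1 was at 1772 and 2196 CPM against 984 and 1221 CPM, a log2 ratio of 0.85 in both. Dlx1 had 0.83 and 0.95, and Mycl 0.51 and 0.40. Lef1 had −0.66 and −0.83, Msx1, a homeobox gene of the matrix, −0.69 and −0.59, and Sox21, a regulator of the hair cuticle, −0.81 and −0.85. Of 10 factors of the outer sheath, 0 were past 2-fold in either direction, with medians of 0.04 and −0.10.

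Of the genes of the Wnt response 6 of 17 and 5 of 16 were more than 2-fold lower and 0 more than 2-fold higher, with medians of −0.66 and −0.82, where 2.06% and 2.24% of all genes compared were more than 2-fold lower. The other 11 genes in each library did not pass 2-fold. Axin2, a feedback inhibitor induced by Wnt, had −0.66 and −0.84 and Notum, which inactivates Wnt proteins, −1.57 and −2.13. Of 11 Wnt ligands, 2 and 3 were more than 2-fold lower and 0 higher (medians −0.37 and −0.84). In the BMP pathway 2 and 2 of 16 genes were more than 2-fold lower (medians −0.25 and −0.08), among them Bmp4 in the PADI4 WT library at −1.08, with −0.91 in the other. By construction, the limits of the selection lower ratios of genes high in the cells they removed. In the Shh cells Wnt10b was at 103 and 103 CPM, Sp5 at 33.1 and 37.6 CPM, and Bmp4 at 140 and 149 CPM. The part of these limits in the Wnt and BMP counts was not tested, so the counts are not read as a trait of the selected cells. In the hedgehog pathway only Shh itself, on which the cells were chosen, was past 2-fold among 9 genes (medians 0.07 and 0.06). Of 10 Notch genes 0 were past 2-fold (medians −0.13 and −0.17), and of 13 FGF and EGF genes 1 and 2 were more than 2-fold lower (medians −0.10 and −0.13). Among 21 guidance and adhesion genes, Slit3, a repulsive cue, was at 253 and 316 CPM with 0.91 and 1.03 and was more than 2-fold higher in the cKO-labelled library alone (medians −0.00 and 0.07).

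The lists of structural genes are read against the same 2.06% and 2.24% of all genes. Of 9 and 5 hair shaft keratins, 5 and 3 were more than 2-fold lower (medians −1.07 and −1.23), and of 10 and 11 inner root sheath genes 4 and 4 (medians −0.78 and −0.82), which contain the keratins limited by the selection. Medulla genes were more than 2-fold lower in 1 and 3 of 6 cases (medians −0.39 and −0.92), while the list summed to 2514 and 2426 CPM against 2117 and 1974 CPM, most of it Mt1, and basal and sheath keratins in 3 and 4 of 11 (medians −0.32 and −0.24). None of these lists had a gene that was more than 2-fold higher. Of 11 D cyclins and CDK inhibitors 0 and 1 were more than 2-fold lower (medians 0.02 and 0.06), with Cdkn1a, which arrests the cell cycle, at −0.68 and −0.93. Padi3 and Padi4 were the compared Padi genes (medians −0.14 and −0.40). Padi3 was at 4.06 and 2.18 CPM against 5.01 and 3.64 CPM.

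Genes of the cell cycle had small ratios. All 43 S phase genes in the PADI4 WT library and 41 of 43 in the other had a ratio above 0, with medians of 0.23 and 0.20, and 48 of 54 G2M genes did in each library, with medians of 0.17 and 0.23. Of all genes compared, 54.2% and 52.9% lay above 0. None of the cell cycle genes passed 2-fold. Mki67 was at 566 and 498 CPM in the selected cells against 458 and 365 CPM, and Top2a, a topoisomerase of dividing cells, at 510 and 478 CPM against 405 and 364 CPM. Phase calls placed 31.5% and 37.4% of the selected cells in S phase and 38.6% and 35.7% in G2M, against 25.7% and 32.9% and 35.0% and 27.9% of the remainder. After thinning to 2000 UMIs the shares of the selected cells were 30.1% and 35.9% in S and 40.3% and 36.6% in G2M. Those of the remainder were then 25.6% and 32.5% in S and 35.6% and 28.6% in G2M. The G2M shares before thinning were higher in the Dcn, Dlx4, and Cldn10 cells (45.1% and 42.8%) and the Shh cells (52.4% and 46.6%) than in the selected cells. Their S shares were 34.3% and 40.5%, and 31.4% and 36.8%. Of 40 genes of ribosome biogenesis 0 were past 2-fold and 35 and 33 lay above 0 (medians 0.06 and 0.07), and of 21 immediate early genes, which respond to stimulation or dissociation of cells, 0 were past 2-fold and 1 and 0 lay above 0 (medians −0.27 and −0.25).

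Markers of other cell types were sparse. Fibroblast markers summed to 12.9 and 20.5 CPM in the selected cells and 39.6 and 35.4 CPM in the remainder, with Col1a2 as the most abundant. Dermal papilla markers summed to 0.178 and 0.358 CPM, immune markers to 0.740 and 1.27 CPM, endothelial markers to 1.01 and 1.27 CPM, and muscle markers to 0.178 and 0.303 CPM, while Merkel cell markers gave 0 UMIs. Melanocyte markers reached 102 and 128 CPM against 125 and 121 CPM. Most of this was Mitf, a transcription factor also expressed outside melanocytes, at 78.6 and 106 CPM, whereas Tyr and Tyrp1, which make pigment, were at 0.592 and 0.496 CPM and 0.563 and 0.551 CPM. Dct was at 15.7 and 15.6 CPM against 42.5 and 27.6 CPM in the remainder. Schwann cell markers gave 43.2 and 41.1 CPM, of which Erbb3 gave 39.04 and 34.9. Red cell markers were at 0.0296 CPM in the PADI4 WT library and 11.8 CPM in the other, where 270 of the 280 UMIs of Hbb-bs lay in 1 cell.

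Markers of other epithelial layers were present throughout. Those of the outer sheath summed to 1534 and 1424 CPM against 1533 and 1526 CPM in the remainder, those of the lower proximal cup to 913 and 1030 CPM against 779 and 902 CPM, and those of the upper follicle to 489 and 455 CPM against 572 and 547 CPM. Inner sheath markers stood at 588 and 590 CPM against 943 and 847 CPM, those of the cortex and cuticle at 119 and 98.2 CPM against 243 and 224 CPM, and those of the medulla at 71.4 and 64.3 CPM against 171 and 192 CPM. Sebaceous markers were at 58.2 and 71.2 CPM, companion layer markers at 48.8 and 29.2 CPM, and epidermal markers at 168 and 91.5 CPM against 238 and 111 CPM. By these sums the selected cells held markers of several epithelial layers of the follicle. A few sets among them, described below, were led by other markers, namely 17 cells with fibroblast markers at 2168 CPM and 64 cells with epidermal markers at 2807 CPM.

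Clustering of the 3798 selected cells alone, again without the genes of the selection, gave 13 sub-groups, named here by their leading genes. The sub-group led by Ptgds and Kit, with Prnd, Ecel1, and Msx1 among its 10 leading genes, had 388 cells, 155 in the PADI4 WT library (8.05% of its selected cells) and 233 in the cKO-labelled library (12.4%). Among the 13 sub-groups it had the highest Kit, Dlx3, and Eda. Kit was at 44.98 CPM, Myb at 153 CPM, Gfra3 at 27.9 CPM, Eda at 1886 CPM, and Dlx3 at 208 CPM. Dlx2, at 67.1 CPM, was higher in the sub-groups led by C1qtnf7 (84.0 CPM) and by Tagln (91.7 CPM), Myb was higher in the former, and Gfra3 in the 17 cells led by Col3a1 (69.2 CPM, 20 UMIs in 5 cells). The median cell had 40 UMIs of Myb, Gfra3, and Eda. Mki67 was at 1042 CPM, and 73.2% of the cells were called in G2M. Its Kit UMIs were spread over 167 cells, whereas 135 of 137 UMIs of Ptgds, a prostaglandin synthase, 155 of 164 of Pmel, and all of Tyr and Tyrp1 (35 and 27 UMIs), genes of pigment cells, lay for each gene in 2 cells. Dct, also a pigment gene, was at 64.7 CPM, with 243 of its 545 UMIs in 2 cells and the others spread over many, and it was present in the empty droplets at 38.9 and 22.0 CPM.

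The largest sub-group, led by C1qtnf7, Htr1d, Rasd2, and Stc1, had 556 cells (13.5% and 15.9% of the selected cells). Myb was highest there, at 192 CPM, with Phactr1 at 141 CPM, Cux1 at 3663 CPM, and the metallothionein Mt1 at 3615 CPM, while Kit was at 6.64 CPM. The 400 cells led by Hbb-bs, which came from 1 cell, and by Tagln, an actin-binding protein, had Phactr1 at 181 CPM, Cacna2d3 at 155 CPM, Slit3 at 1301 CPM, Ret at 69.2 CPM, Timp3 at 1945 CPM, and Vdr, the vitamin D receptor, at 518 CPM, with 0 UMIs of Kit. Myb stood at 103 CPM there and Eda at 449 CPM. Phactr1, the leading gene over all selected cells, thus belonged to the sub-groups with Myb and little Kit.

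**Figure D4:**
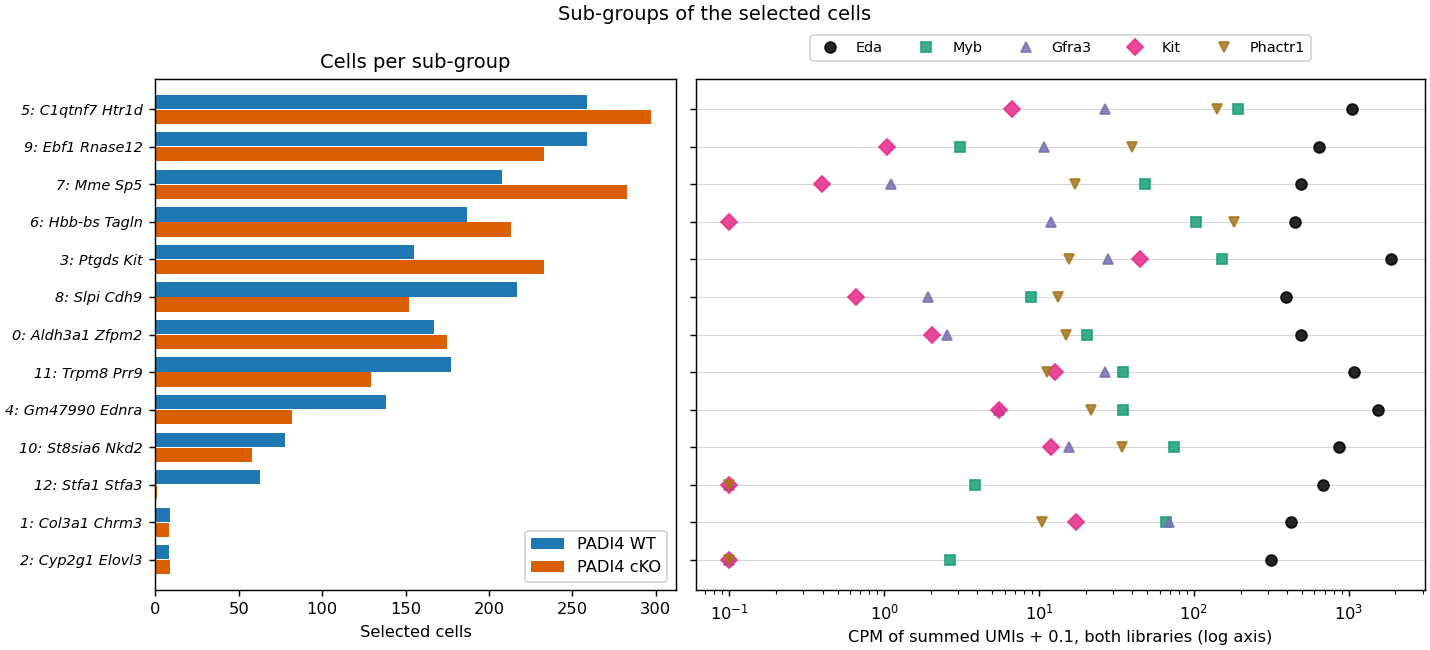
The left bars give the number of selected cells of each library in the 13 sub-groups, and the right points the CPM of Eda, Myb, Gfra3, Kit, and Phactr1 over both libraries on a log axis after adding 0.1. Kit is highest in sub-group 3 (44.98 CPM), Myb in sub-group 5 (192 CPM), and Phactr1 in sub-group 6 (181 CPM), while Eda is above 300 CPM in every row.

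Other sub-groups carried genes of different layers. A set of 492 cells led by Ebf1 and Rnase12 had Krt15 at 2281 CPM and Sox9 at 821 CPM, Myb at 2.97 CPM, and 79.3% of its cells in G1. The 342 cells led by Aldh3a1 had Pparg, the regulator of sebaceous cells, at 439 CPM, and 17 cells led by Cyp2g1 and Elovl3 had it at 1885 CPM. The 491 cells led by Mme and Sp5 had Edar at 198 CPM, the highest of the 13, and the 369 cells led by Slpi and Cdh9 had Krt15 at 840 CPM. In that sub-group 105 of the 137 UMIs of Slpi, a protease inhibitor, lay in 1 cell.

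The 220 cells led by Gm47990 and Ednra had the shaft keratin Krt35 at 1859 CPM and Lef1 at 1960 CPM, and with 138 and 82 cells they were 7.17% and 4.38% of the selected cells. The 306 cells led by Trpm8, with Wnt11 among the leading genes, had the companion layer keratin Krt75 at 320 CPM, Gata3, a regulator of the inner root sheath, at 451 CPM, and Krt28 at 939 CPM. A set of 136 cells had 55.9% doublet calls and a median of 27942 UMIs. Of 64 cells led by the stefin genes Stfa1 and Stfa3, with Krt1 at 777 CPM, 63 came from the PADI4 WT library and 1 from the other. The last 17 cells, led by Col3a1, had the muscle actin Acta2 at 2087 CPM in the 9 PADI4 WT cells and 279 CPM in the 8 others and Col3a1 at 447 and 2257 CPM, and Sox10, a regulator of glial and pigment cells, was seen in 12 of them.

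Between the libraries, 12526 genes with at least 100 UMIs in the selected cells were compared. The ratio of the cKO-labelled library to PADI4 WT was above 0.5 on the log2 scale for 171 genes (1.37%) and below −0.5 for 448 genes (3.58%), with a median of −0.02. Among cells with Xist and without Y-linked UMIs these counts were 253 and 273 of 11754 genes compared. Eda was at 836 and 864 CPM, a log2 ratio of 0.05 (0.02 to 0.07), and 0.00 among the Xist cells. Myb had 0.25 (0.17 to 0.32) over all selected cells and −0.01 among the Xist cells, and Kit 0.16 (−0.07 to 0.40) and 0.59.

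Of 22 genes among those that the study named from these libraries, 0 were more than 2-fold higher and 3 and 4 more than 2-fold lower in the selected cells than in the remainder (medians −0.08 and −0.07), against 2.06% and 2.24% of all genes. Between the libraries, 4 were above 0.5, 0 were below −0.5, and 18 were above 0, with a median of 0.22, where 1.37% of all genes were above 0.5, 3.58% below −0.5, and 43.8% above 0. They were chosen on these samples and are not independent evidence of their direction. The AP-1 gene Fosb was at 84.97 CPM in the selected PADI4 WT cells and 172 CPM in the cKO-labelled ones, a log2 ratio of 1.02 (0.95 to 1.081), and 0.65 among the Xist cells. Fos was at 147 and 216 CPM (0.56, and 0.47 among the Xist cells), Jun had 0.24 and 0.33 in these sets, and Egr1 0.32 and 0.37. In the remaining cells of the libraries Fosb was at 101 and 177 CPM. Of all 21 immediate early genes 2 were above 0.5, 1 below −0.5, and 13 above 0.

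Rpl26, a ribosomal protein gene, was at 1449 and 2391 CPM in the selected cells (0.72, and 0.40 among the Xist cells) and at 1577 and 2562 CPM in the remainder. Hmga1b, a chromatin protein gene, was at 4.53 and 21.9 CPM, a log2 ratio of 2.27 (2.02 to 2.53), and 3.36 among the Xist cells. Hmga1, from which it differs little in sequence, went the other way, from 56.3 to 35.6 CPM (−0.66), and the sum of both was 60.8 and 57.5 CPM (−0.08, −0.17 to 0.01). How reads shared by both genes were assigned was not tested. Hdac1 had 0.35 over all selected cells and 0.30 among the Xist cells, Msx1 0.34 and 0.77, Pcna 0.25 and 0.12, and Mcm5 0.26 and 0.03. Lef1 had −0.08 over all selected cells and 0.34 among the Xist cells, and Krt35 −0.25 and 0.46, so both changed direction between these sets of cells. So did Foxq1 (−0.03 and 0.66), Bmp2 (−0.24 and 0.28), Rrp9 (0.08 and −0.17), Msx2 (0.05 and −0.06), and Rrs1 (0.09 and −0.03), several of them with values close to 0. Padi3 was at 4.06 and 2.18 CPM, −0.90 (−1.32 to −0.49), and −1.17 among the Xist cells.

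**Figure D5:**
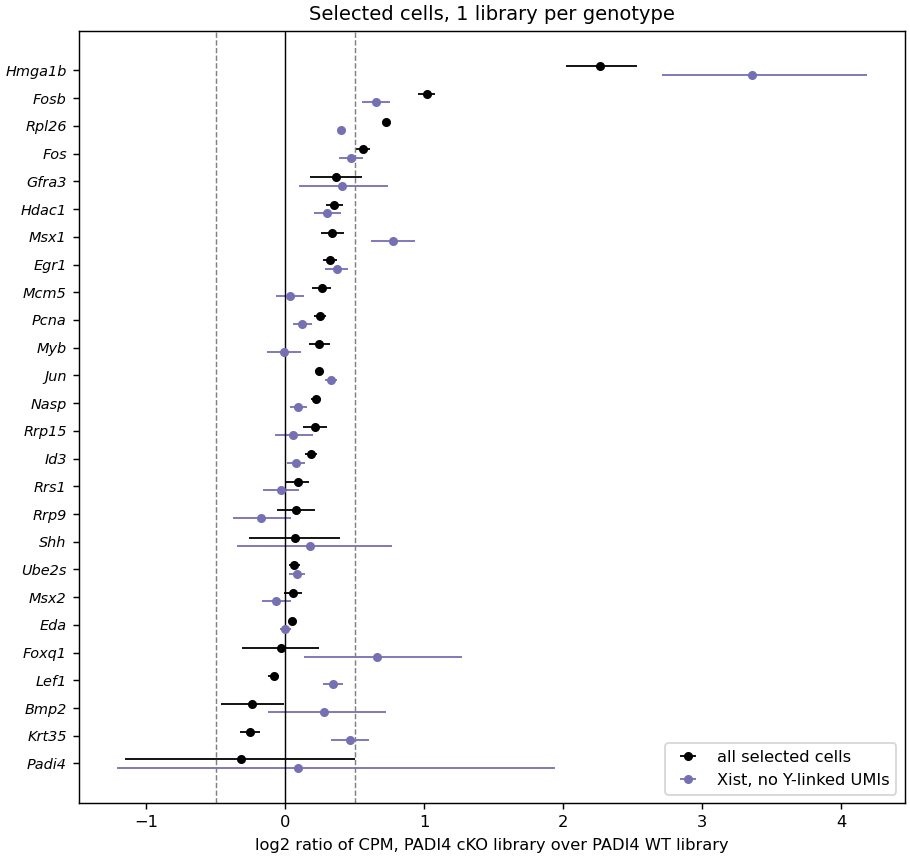
Log2 ratios of CPM in the selected cells, the cKO-labelled library over PADI4 WT, with 95% counting intervals, for all selected cells in black and for cells with Xist and without Y-linked UMIs in purple. Hmga1b and Fosb lie above 0.5 in both, and Lef1 and Krt35 lie below 0 in black and above it in purple.

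Within the sub-groups led by Ptgds and Kit, by C1qtnf7, and by Tagln, the log2 ratios of Fosb were 0.89, 0.92, and 1.56 and those of Rpl26 0.67, 0.70, and 0.70. Those of Msx1, which the study named from its medulla cluster, were 0.01, 0.07, and 0.48. The sub-groups were not matched to the study's clusters. Over all selected cells, 38 of 43 S phase genes (median 0.14) and 10 of 54 G2M genes (median −0.09) were above 0, against 43.8% of all genes, and 0 in either list passed 0.5. Among the Xist cells 24 of the S phase genes (median 0.00) and 14 of the G2M genes (median −0.05) were above 0, against 49.8% of all genes. Of 10 Wnt ligands compared 3 were below −0.5 (median −0.35), against 3.58% of all genes, and 1 was above 0. Among the Xist cells 6 of 9 were above 0 (median 0.02).

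The highest ratios after Hbb-bs are given for all selected cells and then for the Xist cells. Gm10260 had 3.49 and 6.63, Tmem232 2.31 and 2.4997, and Gm21887 2.04 and 2.33. BC023719 had 3.40 over all selected cells, and gave 0 UMIs in the Xist cells of the PADI4 WT library. Slpi had 2.84 and 3.23, mostly from 1 cell as given above. Zeb2 had 2.53 and 2.39 and Pde7b 2.07 and 1.87, and 168 of the 197 Zeb2 and 142 of the 223 Pde7b UMIs lay in the 17 cells led by Col3a1. Tsix, which overlaps Xist, had 1.85 and 0.18. The lowest were the Y-linked genes Uty, Eif2s3y, and Kdm5d, with 2783, 1904, and 621 UMIs for PADI4 WT and 0 in the other, and Ddx3y (−6.03), which the Xist cells lack by their choice. Chrm3, a muscarinic receptor, followed at −5.00 and −4.77, with 275 of its 282 PADI4 WT UMIs in the 17 cells led by Col3a1. Stfa3 had −4.57 and −1.60, Krt1 −3.79 and −1.20, and Stfa1 −3.84 and −2.68. The sub-group of 64 cells held 1869 of the 2245 Stfa3 and 601 of the 857 Krt1 UMIs of the selected PADI4 WT cells. Stfa1 and Igf2 were also among its leading genes. They stood at 1278 and 97.8 CPM there and at 2.54 and 0.938 CPM in the other selected cells. Between the libraries, Igf2 had −3.93 and −2.27. In all of these values genotype, animal, and library cannot be told apart.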

How the data were processed

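The files deposited by the authors hold unfiltered whole-number UMI counts for each barcode, without normalization. Libraries were made with Chromium 3′ v3.1 chemistry, and the file headers name Cell Ranger 7.1.0. The submitters' processing notes list mm10 and Scanpy, and whether introns were counted is not given in the sources used here. CellBender, Harmony, and the study's cluster names were not used. Cells, genes, and lists were chosen with earlier results of these data known.

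Counts were summed over cells, scaled to CPM, and compared as log2 ratios after adding 0.5 UMI to each sum, with exact intervals from SciPy 1.17.1. Genes needed 50 UMIs for selected cells against the remainder and 100 between libraries. Named genes are the 11 genes of the selection with Kit, Dlx2, and Dlx3, the 25 highest and 10 lowest outside it by the ratio nearer to 0, the most abundant or highest genes of each list, Padi4, 22 genes named by the study, and the 10 highest and 10 lowest ratios between libraries. Further genes were picked after their values were seen, and 1 gene named by this rule is not reported here. Scanpy 1.11.5 was used for clustering (1000 variable genes, 15 neighbors, Leiden, 50 components at resolution 1 for all cells and 20 at 0.5 for the selected cells, without cell cycle, mitochondrial, Xist, and Y-linked genes) and phases. Scrublet called 291 (3.36%) and 298 (3.82%) doublets, which were kept, with a fixed threshold of 0.2 in the PADI4 WT library because the automatic value of 0.613 was too high. Gene spans were matched for 32158 of 32285 identifiers. Counts were also simulated as Poisson draws around the pooled levels, which is the error the intervals assume. There, 100% of genes changed 2-fold were recovered past 0.5 between libraries, 0.430% of unchanged genes passed it, and 95.4% of intervals held the true value. UMIs crowded into single cells were not simulated, so this checks the calculation and not the intervals on the real counts. Alternatives for the sum, depth, doublets, Shh, keratins, free RNA, scaling, gene minimum, and sex were computed.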

Additional observations from a re-analysis of the deposited data

Results flagged for a closer look

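Slpi was the gene that lay more than 2-fold on opposite sides in the libraries, with a log2 ratio of selected cells over the remainder of −2.43 for PADI4 WT and 1.73 in the cKO-labelled library, from 18 and 142 UMIs in the selected cells. Of the 137 UMIs in the sub-group it leads, 105 lay in 1 cell. The difference between the libraries was not tested.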

How the results depend on the processing

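Numbers of selected cells stayed within 1.5 times under all planned limits on the sum, depth, doublets, ribosomal UMIs, keratins, and Shh, from 1471 to 2272 PADI4 WT cells and from 1470 to 2204 with the cKO label. A minimum of 200 UMIs per gene, which leaves fewer genes, gave 26 higher and 135 lower genes for PADI4 WT, against 38 and 141 in the other. Between the libraries, minima of 50 and 500 UMIs gave 308 and 56 genes above 0.5 and 697 and 136 below −0.5, and cells with Xist alone gave 273 below. A pair of alternatives was chosen after seeing the data. At least 2 UMIs of Myb and Gfra3 left 593 and 701 cells, with 161 higher and 1907 lower genes for PADI4 WT, 188 and 1649 in the other, and 161 below −0.5 between them. The clusters led by Phactr1 and Kit alone left 412 and 562 cells, with 282 and 2522, 311 and 2237, and 112. The log2 ratio of Kit over the remainder ran from −0.14 (a sum of at least 3) to 1.31 (those clusters) for PADI4 WT, where its direction changed, but from 0.51 to 1.75 in the other. The 25 highest genes stayed above 0 and the 10 lowest below −1 in every setting, with 22 to 25 of the 25 past 1. They were ranked on these cells and the settings use the same or overlapping cells, so this is no independent support. Of the values of named genes over the remainder, 378 fell outside the counting interval of the main setting and 910 inside. Between the libraries 148 fell outside without a reversal, 5 were reversed, and 867 fell inside. Between the libraries, Chrm3 turned to 0.38 with at least 3 UMIs of the sum per 10000, Krt71 to 0.000795 with 2 UMIs of Myb and Gfra3, and Krt71 to 0.52, Zeb2 to −2.14, and Padi1 to 1.03 in those clusters; the cause was not tested. Without the sub-group of 64 cells, 173 genes were above 0.5 and 383 below. No paired analysis was possible because each genotype has 1 library. Depth limits rare genes such as Padi4, and says nothing of the spread between animals.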

Other observations

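In 13 genes the ratio of selected cells over the remainder lay past 0.5 on opposite sides of 0 in the libraries, which was not tested. Pde10a had −2.06 for PADI4 WT and 0.99 in the cKO-labelled library, with 12 and 77 UMIs in the selected cells, and Cdhr1 −1.50 and 0.73 with 11 and 43 UMIs. Hdac9, a class IIa histone deacetylase, had −0.82 and 0.58 with 38 and 75 UMIs. Ntm, a neuronal adhesion molecule, had −0.77 and 1.47 with 42 and 70 UMIs, and was among the leading genes of the 17 cells with Col3a1. These genes were singled out after their values were seen.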
